A study of Mus musculus with 8 samples.

Results

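The 9 genes described here, Bcl6, Maf, Tox2, Cxcr5, Icos, Pdcd1, Sh2d1a, Cd40lg and Il21, are the genes by which follicular helper T (TFH) cells are usually recognised. They were taken by symbol, and all 9 were found among the 32285 genes of the deposited count matrices. In CD4 T cells of the cKO spleen 4 of them (Pdcd1, Tox2, Maf and Sh2d1a) were called higher than in control, where 3.21% of 12086 genes were. The Sh2d1a call was lost without cKO replicate 2. In cKO CD4 T cells most transcripts of these 4 genes lay in cells of TFH-like clusters. In B cells Bcl6 and Cxcr5 were the abundant members.

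The data are single-cell 3' RNA-seq counts from spleens of 2-month-old mice. Control mice carried Cγ1Cre and the Rosa26-YFP LSL reporter, and cKO mice carried in addition 2 floxed copies of Eif3e (Eif3e fl/fl Cγ1Cre Rosa26-YFP LSL), a gene for a subunit of the translation initiation complex eIF3. For each genotype, total live splenocytes and sorted YFP+ cells were profiled in 2 batches, which gave 4 groups of 2 libraries. Each library was pooled from 2 or 3 mice of 1 genotype, so that p-values here measure the spread between pooled libraries. In fits with 1 library in a group the spread within that group was not measured. In the Cγ1Cre line Cre follows transcription of the immunoglobulin γ1 constant region and is therefore aimed at activated B cells, not at T cells, and YFP marks cells in which Cre has acted, in both genotypes.

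The deleted gene was checked first. In B-lineage cells of the YFP+ sort Eif3e (chr15:43250058-43282719) stood at 257 and 299 CPM in control and 238 and 284 CPM in cKO, and in CD4 T cells of total splenocytes at 295 and 362 CPM in control and 265 and 309 CPM in cKO. The ranges of the genotypes overlapped in both, while within each batch the cKO library was the lower of the pair. The difference in CD4 T cells (-0.31 ± 0.27, adjusted p = 0.738) passed only with the batch blocked (-0.30, adjusted p = 0.0130), and that in B-lineage cells of the sort passed in neither fit (-0.045 ± 0.32, adjusted p = 0.981, and -0.042, adjusted p = 0.916 with the block). Counts from the 3' end do not show which exons a transcript contains, so these values cannot check the genotype labels. The libraries held between 5931 and 10452 B-lineage cells, and between 71894780 and 105224903 unique molecular identifiers (UMIs, 1 per captured transcript). After the study's filters 83704 of 83967 cell barcodes remained, and any 2 libraries shared 51 to 102 barcodes.

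TFH cells are the CD4 T cells that enter B cell follicles and give help to B cells, both where T and B cells first meet and within germinal centers. Bcl6 is the repressor that commits a T cell to this fate, Maf is a transcription factor that drives IL-21 and CXCR5 expression, and Tox2 is an HMG-box factor that supports the program. CXCR5 is the receptor that guides cells toward the follicle, ICOS is a costimulatory receptor, and PD-1, the product of Pdcd1, is an inhibitory receptor that TFH cells carry at high density. SAP, encoded by Sh2d1a, is the adaptor of SLAM family receptors that makes T–B contacts last, and CD40L and IL-21 are the helper signals themselves. B cells use part of the same set: Bcl6 is also the master repressor of the germinal center B (GCB) cell, and CXCR5 is carried by nearly all mature B cells.

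In GRCm38 the genes lie at chr16:23965052-23988852 (Bcl6), chr8:115682942-115707794 (Maf), chr2:163203125-163324170 (Tox2), chr9:44511787-44561877 (Cxcr5), chr1:60977927-61000320 (Icos), chr1:94038305-94052553 (Pdcd1), chrX:42502453-42529330 (Sh2d1a), chrX:57212143-57224042 (Cd40lg) and chr3:37222759-37232636 (Il21). Icos and Pdcd1 share a chromosome, as do Sh2d1a and Cd40lg on the X chromosome. RefSeq promoter windows of GRCm38.p6 were matched for 4 of the 9 members, Pdcd1, Tox2, Il21 and Bcl6, with 9 windows in all. The 250 bases before the start are printed below for 3 of these 4: Pdcd1, with the largest difference in CD4 T cells, Il21, the rarest of the 9 transcripts there, and Bcl6, which is measured in both T and B cells in what follows. Capitals mark matches on either strand to the NFAT core TGGAAA, the AP-1 site TGANTCA, the STAT site TTCNNNGAA or the TCF site CTTTGA.
Pdcd1 (chr1:94052554-94052803, minus strand): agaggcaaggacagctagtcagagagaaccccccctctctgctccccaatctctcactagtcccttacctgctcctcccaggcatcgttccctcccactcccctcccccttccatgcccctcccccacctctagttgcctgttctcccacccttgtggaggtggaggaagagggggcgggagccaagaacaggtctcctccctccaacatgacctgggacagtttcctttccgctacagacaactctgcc
Il21 (chr3:37232637-37232886, minus strand): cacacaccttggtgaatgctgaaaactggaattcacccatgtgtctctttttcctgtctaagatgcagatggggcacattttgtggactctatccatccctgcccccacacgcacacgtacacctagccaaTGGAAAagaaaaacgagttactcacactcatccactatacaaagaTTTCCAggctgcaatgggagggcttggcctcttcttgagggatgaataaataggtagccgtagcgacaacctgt
Bcl6 (chr16:23988853-23989102, minus strand): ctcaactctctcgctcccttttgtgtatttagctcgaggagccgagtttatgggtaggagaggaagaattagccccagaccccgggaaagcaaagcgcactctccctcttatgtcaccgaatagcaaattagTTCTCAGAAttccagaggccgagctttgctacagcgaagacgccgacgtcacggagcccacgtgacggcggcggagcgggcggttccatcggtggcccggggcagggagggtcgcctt
Bcl6 (chr16:23981284-23981533, minus strand): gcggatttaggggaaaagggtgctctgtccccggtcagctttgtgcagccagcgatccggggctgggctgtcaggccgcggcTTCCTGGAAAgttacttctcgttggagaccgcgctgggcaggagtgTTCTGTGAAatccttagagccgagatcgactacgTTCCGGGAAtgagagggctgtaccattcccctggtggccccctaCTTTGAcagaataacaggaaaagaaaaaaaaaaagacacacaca

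The Il21 window held 2 NFAT cores, 119 to 114 and 74 to 69 bases before the start. The upstream Bcl6 window held 1 STAT match, and the second Bcl6 window held 3 STAT matches, 1 NFAT core that overlaps the first of them, and 1 TCF match. No match to these 4 motifs was present in the Pdcd1 window, and the Tox2 windows held none but a TCF match in the 2 overlapping downstream windows. Among all 32851 windows of the same length 18.6% held the NFAT core, 6.75% the AP-1 site, 7.02% the STAT site and 13.8% the TCF site, and 66.2% held the E-box CANNTG, which is not capitalised. These matches describe letters only. Cxcr5, Icos, Cd40lg, Maf and Sh2d1a were not in the promoter table.

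Cell classes were rebuilt by clustering and named from marker genes that include none of the 9 members. In total splenocytes the CD4 T cells numbered 1345 and 1286 in control and 1418 and 1914 in cKO libraries. Within them the TFH-like clusters held 38 and 16 control cells and 364 and 655 cKO cells. The summed level of the 10 TFH markers in CD4 T cells was 511 and 471 CPM in control and 1488 and 2347 CPM in cKO, and all 10 were detected in every library but cKO replicate 2, where Ppp1r14c was at 0. Most TFH-like cells formed 1 cluster with Gm47957 and Sostdc1 as leading genes. A second cluster of 42 cells, led by Spp1 and Ralyl, scored highest on the TFH list but had none of that list among its 10 leading genes, and gave 17 of the control TFH-like cells. The 16 cells of control replicate 2 fell below the minimum of 20 cells per library, so tests within TFH-like cells rest on 1 control library unless a lower minimum is named. The CD4 T cells also held Treg-like, Th1-like and naive CD4-like cells, and 1 cluster of 751 cells, led by Efna5 and Eomes, of which all but 1 came from cKO libraries and which was left unnamed.

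Levels are given as CPM, the usual scaling of a gene's UMIs to the summed UMIs of a class in 1 library, and were compared between classes for 1 gene at a time. Across the classes of total splenocytes with at least 20 cells, TFH-like cells had the highest Pdcd1, at 312 to 483 CPM over 3 libraries of both genotypes, with Treg-like cells next at 46.7 to 94.8 and Th1-like cells at 38.1 to 86.6. These neighbours overlapped each other and lay below every TFH-like value. Tox2 followed the same order of classes, with 258 to 416 CPM in TFH-like, 31.1 to 72.6 in Treg-like and 26.0 to 48.3 in Th1-like cells. Il21 stood at 31.1 to 116 CPM in TFH-like cells and at no more than 7.80 in Th1-like cells. In naive CD4-like cells Il21 gave no UMI in any of the 4 libraries, and Tox2 did not exceed 0.504 CPM.

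The remaining members were shared more widely. Maf stood at 651 to 799 CPM in TFH-like and 266 to 655 in Treg-like cells, which overlapped, and at 279 to 382 in Th1-like cells. Icos reached its highest level in Treg-like cells, 488 to 972 CPM, and overlapped there with Th1-like and TFH-like cells. Cd40lg stood at 302 to 541 CPM in Th1-like, 273 to 318 in TFH-like and 208 to 424 in naive CD4-like cells, ranges that overlapped, and at 38.5 to 86.1 in Treg-like cells, below all of them. Sh2d1a, at 502 to 876 CPM in TFH-like cells, was also present in NK-like cells at 125 to 255. Bcl6 was present outside lymphocytes as well, at 139 to 166 CPM in myeloid-like cells beside 218 to 266 in TFH-like and 142 to 158 in GCB-like cells. Cxcr5 was the member with its highest levels in B cells, 243 to 349 CPM in marginal zone B-like cells and 219 to 331 in naive B-like cells, which overlapped, against 87.3 to 211 in TFH-like cells.

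**Figure D1:**
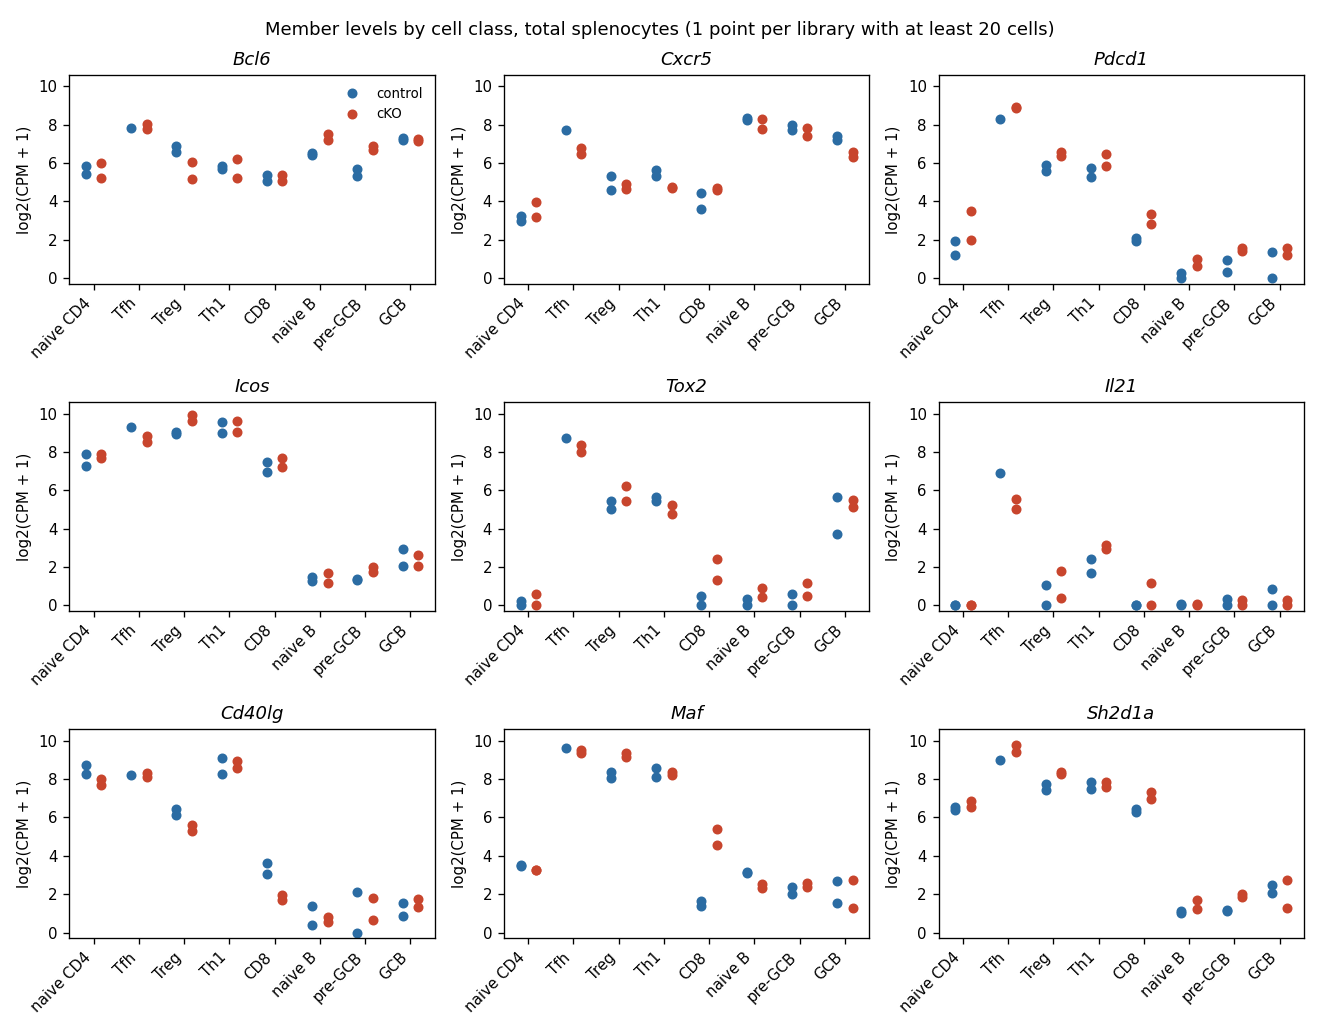
Level of each of the 9 genes by cell class in total splenocytes, as log2(CPM + 1) on the vertical axis, with 1 point per library with at least 20 cells of the class (blue control, red cKO). TFH-like cells show the highest points of Pdcd1, Tox2, Il21 and Sh2d1a among the 8 classes drawn, and Cxcr5 stands at 219 to 331 CPM in naive B-like cells.

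The genotypes were first compared over all CD4 T cells of total splenocytes, which asks how much of each transcript the CD4 compartment held. Of the 9 members 4 were called higher in cKO and none lower (edgeR quasi-likelihood test, adjusted p below 0.05 over all genes), where 3.44% of 12086 genes were called, 3.21% higher and 0.232% lower. The median log2 fold change of the 9 was 1.56, beside -0.023 over all genes. With the batch of the libraries as a block all 9 were called, 8 higher and Cd40lg lower, but that fit called 31.1% of genes. For 8 members both cKO libraries lay above both control libraries, which held for 30.2% of genes, and for Cd40lg both lay below, which held for 12.3%.

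Among the transcription factors, Maf stood at 105 and 88.1 CPM in control and 357 and 433 CPM in cKO CD4 T cells. The groups did not overlap, and Maf rose by 1.92 ± 0.27 (log2 fold change ± SE, adjusted p = 0.0146), which is 3.77-fold. Tox2 was scarce in control, with 22.8 and 12.8 CPM, and reached 109.8 and 116 CPM in cKO. Both cKO libraries lay several-fold above both control libraries, and the increase was 2.54 ± 0.31 (adjusted p = 0.0116). Bcl6, the factor that defines the lineage, differed less, with 70.5 and 51.4 CPM in control and 120.2 and 111 CPM in cKO. Its groups did not overlap either, but its difference of 0.81 ± 0.25 (adjusted p = 0.166) did not pass the test unless the batch was blocked (adjusted p = 4.26e-13).

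Of the receptors, Pdcd1 showed the largest difference of the 9. It stood at 23.7 and 18.1 CPM in control and 158 and 217 CPM in cKO, and the increase was 3.04 ± 0.29 (adjusted p = 0.00589), or 8.24-fold. Both cKO libraries were well above the higher control library. Cxcr5 stood at 19.5 and 18.2 CPM in control and 36.0 and 54.1 CPM in cKO, and Icos, which is also induced on other activated T cells, at 337 and 239.8 CPM in control and 473 and 462 CPM in cKO. The differences of 1.14 ± 0.26 (adjusted p = 0.0647) (Cxcr5) and 0.58 ± 0.28 (adjusted p = 0.407) (Icos) did not pass, and with the batch blocked they did (adjusted p = 1.85e-16 and 1.14e-07). The SAP gene Sh2d1a stood at 118 and 124 CPM in control and 309 and 468 CPM in cKO. It rose by 1.56 ± 0.30 with adjusted p = 0.0401, and without cKO replicate 2 the call was lost (1.23, adjusted p = 0.154).

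The helper signals differed in direction. Il21 was rare, with 40 and 8 UMIs in the control and 86 and 265 UMIs in the cKO libraries, or 4.18 and 1.06 CPM in control and 9.47 and 18.7 CPM in cKO. Its difference of 2.21 ± 0.55 (adjusted p = 0.0849) did not pass in the unblocked fit. With the batch blocked it did (adjusted p = 7.51e-16, beside 31.1% of genes), as by DESeq2 (0.00160, beside 5.74%). Its size depended on the library left out, with 3.41 without control replicate 1, 1.62 without control replicate 2, 2.59 without cKO replicate 1 and 1.62 without cKO replicate 2. Cd40lg stood at 275 and 395 CPM in control and 195 and 221 CPM in cKO, the 1 member for which both cKO libraries lay below both control libraries. The difference of -0.81 ± 0.30 (adjusted p = 0.246) did not pass, and with the batch blocked it did (adjusted p = 6.08e-13).

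B-lineage markers in the CD4 T sums were similar in the genotypes, with 101 and 137 CPM in control and 100.05 and 116 CPM in cKO, against 7821 CPM or more in B-lineage cells of the same libraries. Leaving out T cells with at least 2 B-lineage markers left the Cxcr5 difference at 1.04 and the Bcl6 difference at 0.78. The Treg marker list did move with genotype, at 959 and 988 CPM in control and 2282 and 2472 CPM in cKO for its 6 markers. Naive CD4-like cells went from 73.9% and 72.7% of CD4 T cell UMIs in control (1003 and 929 cells) to 21.8% and 4.87% in cKO (325 and 108 cells). The unnamed CD4 T cells went from 0.361% and 1.49% to 21.3% and 27.0%. The part of these shifts in the member differences was not tested over all CD4 T cells.

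The transcripts of most members were concentrated in TFH-like cells. In control libraries these cells held 3.42% and 1.54% of all CD4 T cell UMIs, and in cKO libraries 27.2% and 39.3%. In cKO they held 81.6% and 87.3% of Pdcd1 UMIs. For Tox2 the shares were 82.2% and 87.7%, and for Il21 89.5% and 95.5%. Bcl6, Cxcr5, Sh2d1a and Maf lay between 55.5% and 79.6%. For Cd40lg the shares were 38.2% and 56.5%. Icos was the exception, with 25.9% and 31.5%, below the share of all UMIs in both cKO libraries. Treg-like cells held 37.9% and 49.3% of the Icos UMIs and 37.0% and 35.4% of the Maf UMIs of cKO CD4 T cells. In control CD4 T cells the few TFH-like cells already gave 62.4% and 18.8% of Tox2 UMIs. In a sum over CD4 T cells, more TFH-like cells and more RNA per cell cannot be told apart, so both were next looked at separately.

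**Figure D2:**
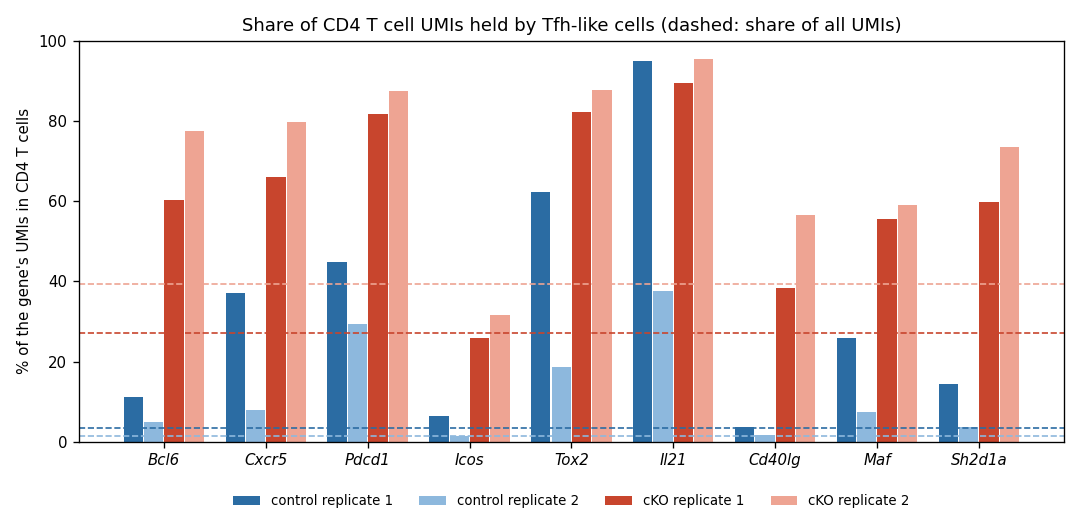
Share of each gene's CD4 T cell UMIs that lay in TFH-like cells (vertical axis, percent), 1 bar per total splenocyte library, with dashed lines at the share of all UMIs held by those cells. In cKO libraries Il21, Tox2 and Pdcd1 stand highest and Icos stands below its line.

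The cluster led by Spp1 and Ralyl gave a larger share of control than of cKO TFH-like cells, so the class differed in makeup. The part of this makeup in the TFH-like differences, here and in the gene lists below, was not tested. Within TFH-like cells the median log2 fold change of the 9 members was -0.15 with 1 control library, beside 0.071 over all genes. With both control libraries it was 0.030, beside 0.034. In the fit with 1 control library 1 of 9 was called, where 1.49% of 10623 genes were called, and with both 0 of 9, where 0.41% were. The member called was Il21, at 116 CPM in the control library and 31.1 and 45.5 CPM in cKO, which fell by 1.5 ± 0.42 on the log2 scale (adjusted p = 0.0313). The call rests on 38 UMIs in 38 control cells, and it was lost once the smaller control library was admitted (-1.03, adjusted p = 0.732), by DESeq2 (adjusted p = 0.767), without a filter on low counts and at a finer clustering. Cxcr5 stood at 211 CPM in the control library and 87.3 and 109.6 CPM in cKO and Icos at 624 CPM in the control library and 449.7 and 370.5 CPM in cKO. Their differences were -1.02 ± 0.43 and -0.54 ± 0.49, and neither passed. Pdcd1 stood at 312 CPM in the control library and 475 and 483 CPM in cKO. Sh2d1a stood at 502 CPM in the control library and 678 and 876 CPM in cKO. Neither of these 2 genes passed. How many of all genes lie to 1 side of a single control library in this way was not counted. Bcl6, Maf, Tox2 and Cd40lg differed by 0.14, -0.15, -0.44 and 0.060 with 1 control library. With both, the values of Maf, Tox2 and Cd40lg changed sign.

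Outside TFH-like cells the picture was narrower. Pdcd1 stood at 13.5 and 13.0 CPM in control and 40.1 and 45.3 CPM in cKO and was the 1 member of 9 called (1.63 ± 0.21, adjusted p = 0.0423), where 0.594% of 11609 genes were called. The groups did not overlap, with both cKO libraries above both control libraries as for 21% of genes, and the increase was 3.09-fold. At the finer clustering its adjusted p was 0.0498. Tox2 at 8.88 and 10.5 against 26.9 and 23.4 CPM and Maf at 80.7 and 82.9 against 218 and 292 CPM missed the threshold (adjusted p = 0.0595 and 0.0591). In the blocked fit 6 were called, Pdcd1, Maf, Tox2, Sh2d1a and Icos higher and Cd40lg lower, beside 11.7% of genes. Bcl6 did not pass in either fit, at 64.9 and 49.7 against 65.7 and 41.2 CPM, nor did Cxcr5, at 12.7 and 17 against 16.8 and 18.2 CPM. Treg-like cells made up 12.8% and 12% of CD4 T cell UMIs in control and 22.9% and 23.4% in cKO, and with the shares of naive CD4-like and unnamed cells given above, the makeup of the cells outside the TFH-like class differed as well.

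The classes were therefore taken 1 at a time, a comparison added after the data were seen. In Treg-like cells, the suppressive CD4 T cells marked by Foxp3, Maf stood at 266 and 330.1 CPM in control and 577 and 655 CPM in cKO and Icos at 532 and 488 CPM in control and 784 and 972 CPM in cKO. Bcl6 ran the other way, with 116 and 92.7 CPM in control and 66.4 and 34.7 CPM in cKO. Both cKO libraries lay above both control libraries for Maf and Icos, an order shown by 23.4% of the genes tested in this class, and below them for Bcl6, as for 16.9%. In this class 0 of 8 tested members were called by edgeR without the block, where 0.761% of genes were called, with 6 at an unadjusted p below 0.05, beside 11.3% of genes. With the batch blocked 7 were called beside 16.3% of genes, with Icos, Pdcd1, Tox2, Maf and Sh2d1a higher and Bcl6 (-1.11 ± 0.17, adjusted p = 4.83e-09) and Cd40lg (-0.86 ± 0.19, adjusted p = 7.8e-05) lower. Most control Treg-like cells came from a cluster led by Il2ra and Hdac9 and most cKO ones from a cluster led by Il1rl1 and Klrg1, so different clusters hold the class in the genotypes.

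In naive CD4-like cells Maf stood at 10.2 and 10.4 against 8.56 and 8.71 CPM and Bcl6 at 56.9 and 42.4 against 63.5 and 36.3 CPM, and the groups overlapped for Bcl6. Cd40lg, the ligand through which T cells activate B cells, stood at 307 and 424 CPM in control and 208 and 259.7 CPM in cKO in these cells. Its difference of -0.62 ± 0.32 (adjusted p = 1.00) passed only with the batch blocked (-0.60, adjusted p = 8.65e-05). Without the block 0 of 7 tested members were called in this class, with 0 at an unadjusted p below 0.05 (1.69% of genes) and 0% of genes called, and with it Cd40lg alone, beside 1.56% of genes. In Th1-like cells 0 of 8 members were called by edgeR without the block (0% of genes called, with 0 members and 3.18% of genes at an unadjusted p below 0.05) and 0 with it (1.89% of genes). There Cd40lg overlapped between the groups, at 302 and 541 against 384 and 495 CPM. In TFH-like cells it was 297 CPM in the control library and 273 and 318 CPM in cKO. Both cKO libraries thus lay below both control libraries in naive and Treg-like cells, as for 13.3% and 16.9% of genes, while the values overlapped in Th1-like and TFH-like cells, and the unnamed CD4 T cells of cKO stood at 189 and 167 CPM.

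The genotype difference was compared directly between TFH-like cells and the other CD4 T cells of the same libraries. It was called for 7 of the 9 members, where 3.2% of genes were called, again with 1 control library, and 0 without the library block (0% of genes). For Maf the log2 difference in TFH-like cells was lower than outside them by 1.71 ± 0.19 (adjusted p = 1.44e-15). Tox2 (-1.82 ± 0.23, adjusted p = 2.51e-12), Il21 (-3.02 ± 0.63, adjusted p = 0.000152), Cxcr5 (-1.38 ± 0.28, adjusted p = 6.66e-05), Icos (-1.07 ± 0.20, adjusted p = 7.01e-06) and Pdcd1 (-0.86 ± 0.22, adjusted p = 0.00601) followed in the same direction. Cd40lg was the reverse, with 0.91 ± 0.20 (adjusted p = 0.000364). Bcl6 and Sh2d1a were not called. Outside TFH-like cells Il21 gave 2 UMIs in control replicate 1 and 9 and 12 UMIs in cKO. The size of its value therefore rests on few UMIs. The makeup of the other CD4 T cells differed between genotypes, with fewer naive CD4-like and more unnamed cells in cKO. The part of this makeup in these values was not tested. Admitting the control library with 16 TFH-like cells also left 7 members called, beside 2.89% of genes, but brought the values closer to 0 for Maf (-1.36), Tox2 (-1.30), Il21 (-2.04), Cxcr5 (-0.93), Icos (-0.78) and Cd40lg (0.87), and moved Pdcd1 to -0.93.

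**Figure D3:**
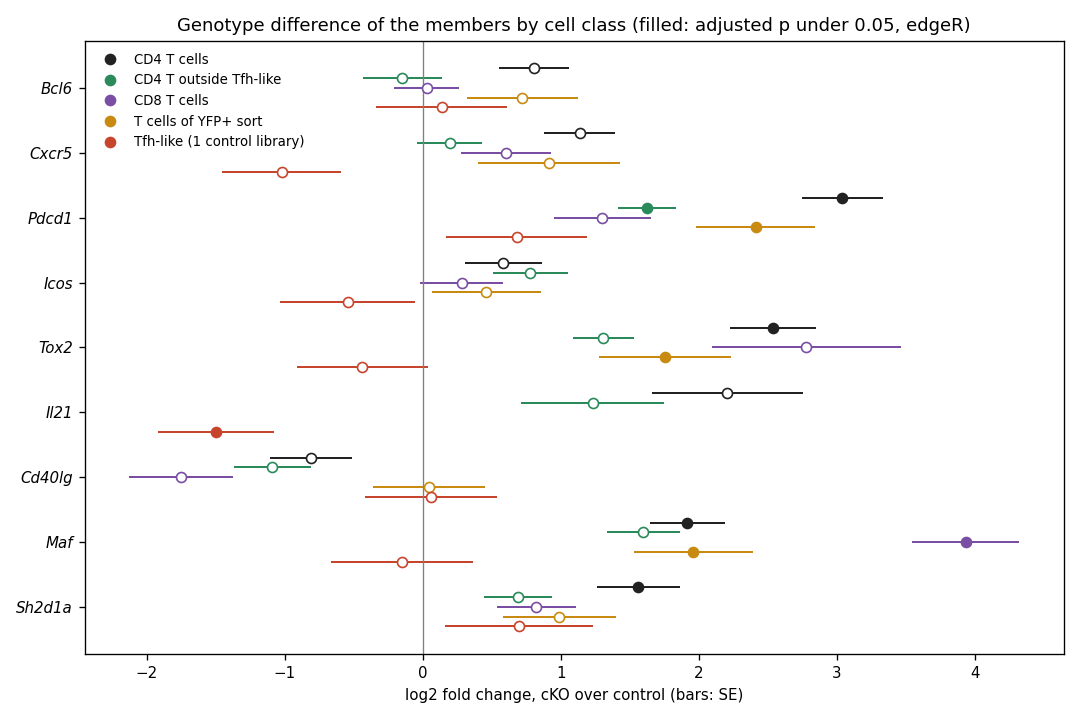
Log2 fold change of each gene, cKO over control, with SE bars, in CD4 T cells, CD4 T cells outside the TFH-like class, CD8 T cells, TFH-like cells (1 control library) and T cells of the YFP+ sort. Filled points passed the edgeR test. Pdcd1 stands at 3.04 over all CD4 T cells and at 1.63 outside TFH-like cells, and Il21 is the filled point on the left, at -1.5 in TFH-like cells.

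Members were next counted in single cells, each thinned to 2000 UMIs so that depth was equal. Cells with fewer UMIs were left out, 21 and 14 control and 25 and 18 cKO CD4 T cells, so that 1324, 1272, 1393 and 1896 remained. Of naive B-like cells 53 and 86 control and 64 and 30 cKO cells were left out. Pdcd1 gave a UMI in 4.08% and 2.59% of control and 18.7% and 25.6% of cKO CD4 T cells, and without thinning in 6.99% and 5.99% of control and 29.97% and 41.1% of cKO. For Maf the thinned shares were 10.8% and 9.91% of control and 35.2% and 45.5% of cKO cells. Naive B-like cells were taken as the background for both. They gave Pdcd1 in 0.0346% and 0% of control and 0.122% and 0.286% of cKO cells. Maf was found in 1.38% and 1.63% of control and 0.853% and 0.701% of cKO cells, and whether these UMIs were the B cells' own was not tested. Median depths were 4155 to 5898 UMIs beside 5696 to 7081 in CD4 T cells. The CD4 T cell shares stood well above that background. Il21 gave a UMI in 0.453% and 0% of control and 1.15% and 2.27% of cKO cells, too few to read a change from. Cd40lg had the opposite order, with 34.1% and 43.5% of control and 26.3% and 27.8% of cKO cells.

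Cells that carried several members together were more frequent in cKO. At least 3 members were detected in 10.3% (95% Clopper-Pearson interval 8.76% to 12.1%) and 10.9% (9.27% to 12.8%) of control CD4 T cells, and in 34.0% (31.5% to 36.5%) and 41.3% (39.1% to 43.6%) of cKO CD4 T cells. Such intervals cover counting error only, and 2 libraries against 2 cannot reach an exact permutation p below 0.333. Outside TFH-like cells the shares were 8.40% and 10.3% in control and 18.3% and 19.4% in cKO. Within TFH-like cells they were 76.3% in the control library and 79.1% and 83.1% in cKO. CD8 T cells gave 1.03% and 0.787% in control and 2.79% and 5.20% in cKO, and naive B-like cells at most 0.183%.

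**Figure D4:**
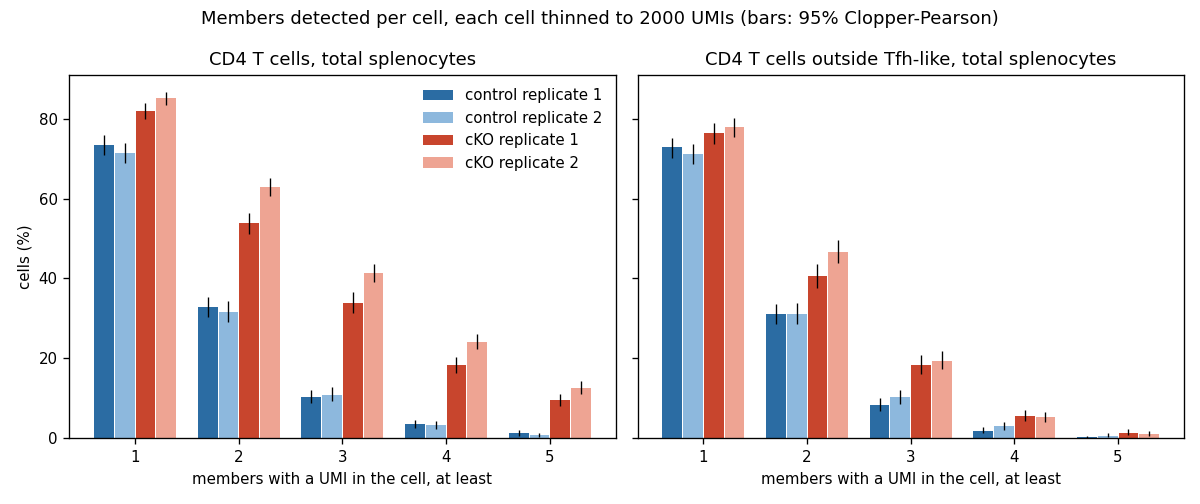
Percent of cells (vertical axis) with a UMI of at least 1 to 5 of the 9 genes (horizontal axis), each cell thinned to 2000 UMIs, 1 bar per total splenocyte library with its 95% Clopper-Pearson interval. Over all CD4 T cells both cKO bars exceed both control bars at every number, from 1 member to 5, and outside the TFH-like class (right) the bars lie closer together.

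Which members shared cells was described in the same thinned cells by the number of CD4 T cells with both, divided by the number that the separate shares would give. This ratio cannot exceed 1 over the larger share, so its ceiling is lower where more cells have a member, and the genotypes are not compared by it. For Pdcd1 and Tox2 it was 9.94 and 10.5 in control, from 15 and 6 cells with both, and 2.90 and 2.33 in cKO, from 102 and 174. For Cxcr5 and Tox2 it was 8.95 and 4.96 in control, from 9 and 3 cells with both, and 2.53 and 2.26 in cKO, from 29 and 58. For Bcl6 and Cxcr5 it was 2.23 and 2.16 in control, from 10 and 7 cells with both, and 1.38 and 1.97 in cKO, from 20 and 56. Cd40lg and Maf stood below 1 in all 4 libraries, between 0.758 and 0.972.

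CD8 T cells, taken as the T cell clusters in which at least 50% of cells had a Cd8a UMI, carried Icos at 175 and 121 CPM in control and 208 and 145 CPM in cKO, and Sh2d1a at 76.5 and 85.2 CPM in control and 122 and 159 CPM in cKO. Of 8 tested members 1 was called, where 0.279% of 11098 genes were called. This was Maf, at 1.63 and 2.13 CPM in control and 22.9 and 41.4 CPM in cKO. Low in both control libraries, it rose by 3.94 ± 0.39 (adjusted p = 0.00434), or 15.3-fold, and a gate on Cd3, Cd8 and Cd4 UMIs in place of clusters gave 3.21, adjusted p = 0.0140. Most control CD8 T cells came from a cluster with Cd8b1 and Cd8a among its 10 leading genes, and 1010 of the cKO cells (685 and 692 in the 2 libraries) from a cluster led by Gzma and Eomes, genes of the NK marker list, whose summed level was 679.6 and 889 CPM in control and 789 and 2028 CPM in cKO. The TFH marker list stood at 104 and 112 CPM in control and 176 and 219 CPM in cKO in the same sums, and the part of either list was not tested. With the batch blocked Tox2, Pdcd1 and Sh2d1a were also called higher and Cd40lg lower, beside 7.56% of genes, and under the UMI gate the Cd40lg difference was 0.078 against -1.75 in clusters.

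The genotype difference was set directly against that of CD4 T cells of the same libraries. It was called for 5 of 9 members, where 13.1% of genes were called, and for none without the library block (0.0325% of genes). Pdcd1 (1.77 ± 0.27, adjusted p = 0.000109), Bcl6 (0.83 ± 0.13, adjusted p = 0.000129) and Sh2d1a (0.77 ± 0.10, adjusted p = 1.6e-05) had the larger value in CD4 T cells. For Cd40lg the value was 1.01 ± 0.21 (adjusted p = 0.00255). Its difference was negative in both classes, so this marks a smaller decrease in CD4 T cells. In CD8 T cells it rests on 59 and 92 control and 12 and 18 cKO UMIs. The Cd40lg call was lost without control replicate 2, and its value turned to -0.92 under the UMI gate. Maf differed by -2.01 ± 0.32 (adjusted p = 0.00355), the larger fold lying in CD8 T cells, where its level stayed below that of CD4 T cells in each of the 4 libraries.

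The YFP+ sort held few T cells, 351 and 63 in control and 364 and 31 in cKO libraries, so that CD4, CD8 and other T cells were pooled. The makeup of the pool differed between libraries, with CD4 T cells at 44.3% and 45.8% of T cell UMIs in control and 48.9% and 66.9% in cKO, and CD8 T cells at 40.0% and 37.0% against 33.4% and 21.6%, and its part in the differences below was not tested. Pdcd1 gave 45 and 0 UMIs in control and 161 and 23 UMIs in cKO, or 22.6 and 0 CPM in control and 83.9 and 139 CPM in cKO. Maf stood at 44.8 and 67.8 CPM in control and 182 and 271 CPM in cKO and Tox2 at 14.6 and 7.97 CPM in control and 51.0 and 48.2 CPM in cKO. All 3 were called higher (2.41 ± 0.43, adjusted p = 1.16e-05 for Pdcd1, 1.96 ± 0.43, adjusted p = 0.00128 for Maf and 1.75 ± 0.48, adjusted p = 0.0323 for Tox2) among 8 tested members, where 0.863% of 8339 genes were called. The size of the Pdcd1 difference rests on control replicate 1, since the other control library had no Pdcd1 UMI. Without control replicate 1 the fit gave 5.35, a value against a level of 0 that depends on the prior count, and the other fits that left out 1 library gave 2.07 to 2.83. The groups did not overlap for any of the 3, with both cKO libraries higher as for 18% of genes. The calls depended on the fit. With the batch blocked Maf, Tox2 and Sh2d1a were called and Pdcd1 was not (adjusted p = 0.0825), beside 1.27% of genes, and with all 8 libraries in 1 model none was. Without cKO replicate 2 the Maf and Tox2 calls were lost (adjusted p = 0.207 and 0.112), likewise without control replicate 1 (0.408 and 0.571), and the Tox2 call alone without cKO replicate 1 (0.832) or control replicate 2 (0.0851). Tox2 was also not called without a filter on low counts (adjusted p = 0.107), without T cells that had at least 2 B-lineage markers (0.0913) or under the UMI gate (0.448), and DESeq2 called Maf alone (adjusted p = 0.0419), beside 0.156% of genes. Bcl6 stood at 55.8 and 35.9 CPM in control and 98.4 and 60.2 CPM in cKO and was not called. B-lineage markers in these T cells were 108 and 147 CPM in control and 156 and 126 CPM in cKO.

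In B cells 2 members were abundant. In naive B-like cells of total splenocytes Cxcr5 stood at 331 and 300.3 CPM in control and 308 and 219 CPM in cKO and Bcl6 at 85.8 and 92.4 CPM in control and 179 and 148 CPM in cKO, whereas Pdcd1, Icos, Tox2, Il21, Cd40lg and Sh2d1a reached at most 2.19 CPM. The 8 T cell markers summed to 23.2 and 33.3 CPM in control and 19.5 and 27.7 CPM in cKO in the same cells. Maf lay between 3.98 and 7.91 CPM.

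Bcl6 in naive B-like cells was higher in both cKO libraries than in both control libraries, a pattern shown by 9.9% of genes. The difference of 0.97 ± 0.22 (adjusted p = 0.229) did not pass, with the batch blocked it did (adjusted p = 0.000146), and by DESeq2 it did (0.0134). In total splenocytes edgeR called 0 of 6 tested members in naive B-like cells, where 0.0719% of genes were called, with 2 at an unadjusted p below 0.05 (6.65% of genes) and 1 called by DESeq2 (1.53% of genes). Over all B-lineage cells it called 0 of 8, where 0.0549% of genes were called, with 5 at an unadjusted p below 0.05 (8.32% of genes) and 3 called by DESeq2 (2.48% of genes). In the blocked fits 2 and 4 were called, beside 15.8% and 14.3% of genes. In the YFP+ sort naive B-like cells gave the same order for Bcl6, 77.7 and 89.9 CPM in control and 169 and 149 CPM in cKO, which 12.2% of genes showed there, with 1.04 ± 0.26 (adjusted p = 0.199) (blocked adjusted p = 3.24e-06). There edgeR called 0 of 3 members, where 0.287% of genes were called, with 1 at an unadjusted p below 0.05 (8.41% of genes) and 1 by DESeq2 (2.22% of genes). Control naive B-like cells came mostly from a cluster led by Maml3 and Abca1 and cKO ones mostly from clusters led by Lifr and Pde2a, so different clusters hold the class in the genotypes.

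In pre-GCB-like cells of the YFP+ sort, activated B cells marked by Myc, Egr2 and Cd83, Bcl6 did pass. It stood at 33.1 and 23.0 CPM in control and 87.4 and 78.2 CPM in cKO, and rose by 1.62 ± 0.21 (adjusted p = 0.00223), or 3.08-fold. It was the 1 member called of 4 tested, where 6.39% of genes were called. Leaving out 1 library at a time gave differences of 1.47 to 1.89. Most control cells of the class came from a cluster led by Mreg and Il4i1, whereas in cKO a cluster led by Scn3a and Pde3a held the most. The class held 312 and 344 control and 3704 and 3989 cKO cells. Its summed GCB markers stood at 890.2 and 542 CPM in control and 443 and 325 CPM in cKO, so both cKO libraries were higher in Bcl6, an order shown by 22.7% of genes, and lower in that marker sum. Cxcr5 there stood at 160.4 and 126 CPM in control and 127 and 74.1 CPM in cKO, and its difference of -0.45 ± 0.25 (adjusted p = 0.380) passed only with the batch blocked (adjusted p = 0.0263), beside 17.2% of genes.

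In GCB-like cells of the YFP+ sort Bcl6 stood at 168 and 127 CPM in control and 135 and 126 CPM in cKO, and the groups overlapped. The difference of -0.12 ± 0.21 (adjusted p = 0.996) did not pass. Cxcr5 stood at 129 and 106 CPM in control and 91.6 and 66.7 CPM in cKO, with both cKO libraries below both control libraries as for 19.6% of genes, and its difference of -0.52 ± 0.22 (adjusted p = 0.517) passed only with the batch blocked (adjusted p = 0.0169), beside 9.1% of genes. By edgeR 0 of 3 tested members were called without the block, where 1.31% of genes were called, with 1 at an unadjusted p below 0.05 (8.99% of genes) and 0 by DESeq2 (2.07% of genes). Most control GCB-like cells came from a cluster led by Rgs13 and S1pr2 and most cKO ones from other clusters, led by histone genes or by Emp2 and Gcsam among others. Among B-lineage classes of the sort Tox2 was highest in GCB-like cells, with 56.4 and 14.8 CPM in control and 50.2 and 47.1 CPM in cKO, against at most 0.571 CPM in naive B-like cells of the sort.

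**Figure D5:**
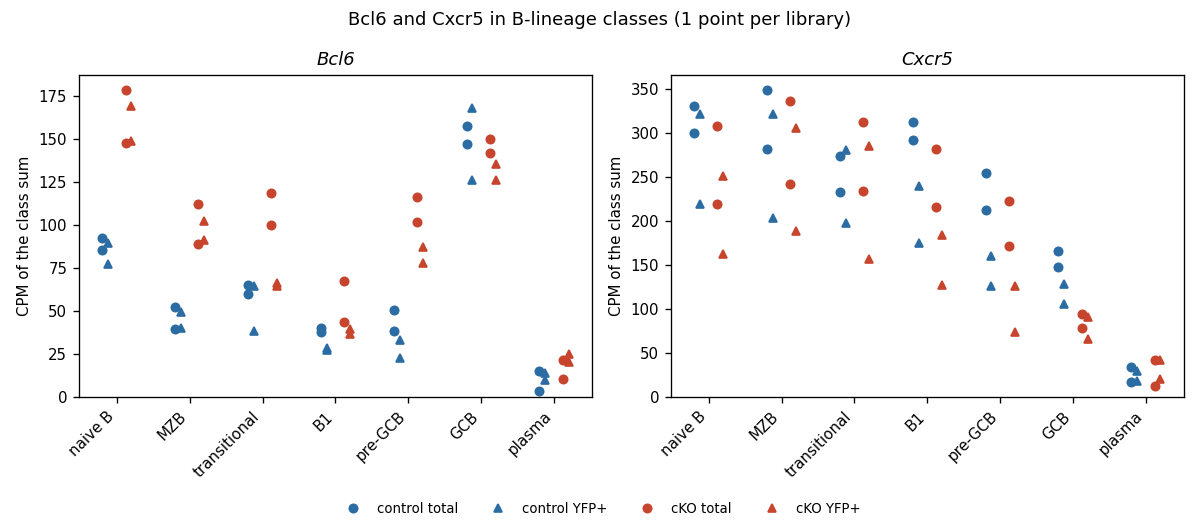
CPM of Bcl6 (left) and Cxcr5 (right) in 7 B-lineage classes, 1 point per library, circles for total splenocytes and triangles for the YFP+ sort (blue control, red cKO). Bcl6 lies higher in cKO than in control in naive B-like and pre-GCB-like cells of both sorts and overlaps in GCB-like cells of the YFP+ sort, and in each YFP+ library Cxcr5 is lower in GCB-like than in naive B-like cells.

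In B-lineage cells of total splenocytes both cKO libraries lay above both control libraries for Bcl6, Tox2, Icos, Pdcd1 and Sh2d1a, as for 13.5% of genes, and below them for Maf, as for 19%. Icos, Pdcd1 and Sh2d1a were scarce there, with 61 and 77, 9 and 9, and 40 and 58 UMIs in control. In cKO they gave 85 and 134, 39 and 63, and 98 and 115 UMIs. Of these B-lineage cells 31 and 63 in control and 48 and 65 in cKO had at least 2 T cell markers. The part of T cell transcripts in this order was not tested. In the YFP+ sort both cKO libraries lay above both control libraries for Bcl6 and Maf (20.4% of genes) and below them for Tox2 (24.1%). Over all B-lineage cells of the YFP+ sort Tox2 was the 1 member called of 7 tested, where 6.25% of 15896 genes were called. It stood at 22.0 and 8.28 CPM in control and 5.48 and 2.84 CPM in cKO and fell by 1.78 ± 0.42 on the log2 scale (adjusted p = 0.0482). The call was lost without cKO replicate 2 (adjusted p = 0.0502) and with predicted doublets removed (0.0557), and without control replicate 1 the difference shrank to -1.10. The summed GCB markers of these libraries moved in the same direction, 1311 and 1286 CPM in control and 509 and 323 CPM in cKO. Within GCB-like cells the Tox2 difference was 0.55 ± 0.44 (adjusted p = 0.920), and leaving out 1 library gave -0.082 to 1.67. With the batch blocked Maf was called as well (1.04, adjusted p = 0.0110), beside 19.5% of genes, at 1.63 and 1.46 CPM in control and 3.10 and 3.08 CPM in cKO.

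Other genes of the TFH program were followed through 3 lists. Of 26 further regulators, 4 were higher in cKO CD4 T cells and 0 lower, where 3.44% of all genes were called: Batf at 59.3 and 63.3 against 193 and 341 CPM (2.01 ± 0.34, adjusted p = 0.0238), Ascl2 (2.73 ± 0.48, adjusted p = 0.0276), Pou2af1 (1.15 ± 0.21, adjusted p = 0.0333) and Prdm1 (1.24 ± 0.22, adjusted p = 0.0296). Batf and Ascl2 promote the TFH fate (Ascl2, like Tnfsf8 below, was also a marker that named the TFH-like class), and Prdm1, which encodes Blimp-1, is known as the antagonist of Bcl6. The call of Pou2af1 was lost without cKO replicate 2 (adjusted p = 0.0572). The median log2 fold change of the list was 0.068, beside -0.023 over all genes. In the blocked fit 10 were called higher and 10 lower, beside 31.1% of genes. Outside TFH-like cells Prdm1 alone was called (1.80 ± 0.26, adjusted p = 0.0485), beside 0.594% of genes, and 11 of 25 with the batch blocked, beside 11.7%. In TFH-like cells, with 1 control library and 1.49% of genes called, Bach2 (-2.35 ± 0.41, adjusted p = 5.42e-06), Id2 (-1.44 ± 0.42, adjusted p = 0.0472) and Irf4 (-1.76 ± 0.42, adjusted p = 0.00378) were called lower. Once the control library of 16 cells was admitted Bach2 kept its call (-2.22, adjusted p = 0.0123), and Id2 (adjusted p = 0.0593) and Irf4 (0.340) lost theirs, beside 0.41% of genes.

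Of 25 surface, adhesion and signalling genes, 7 were higher in cKO CD4 T cells and 0 lower, beside the same 3.44% of genes, with a list median of 0.14. Il4, the other cytokine of TFH help, stood at 0.628 and 1.06 against 129.7 and 343 CPM from 6 and 8 control and 1178 and 4848 cKO UMIs and had the largest difference of the list (7.75 ± 0.64, adjusted p = 0.00536). It was followed by the OX40 gene Tnfrsf4 (2.31 ± 0.43, adjusted p = 0.0354), Tigit (2.24 ± 0.28, adjusted p = 0.0117), Lag3 (1.87 ± 0.39, adjusted p = 0.0497), the CD30 ligand gene Tnfsf8 (1.59 ± 0.30, adjusted p = 0.0360), P2rx7 (1.52 ± 0.23, adjusted p = 0.0179) and the CD73 gene Nt5e (1.51 ± 0.27, adjusted p = 0.0315). Without cKO replicate 2 the call of Tnfsf8 was lost (adjusted p = 0.128), and the differences of Il4, Tnfrsf4 and Lag3 shrank to 6.84, 1.70 and 1.2. In the blocked fit 12 were called higher and 8 lower, beside 31.1% of genes. Il4 was also higher outside TFH-like cells, from 2 and 7 control and 94 and 337 cKO UMIs (5.05 ± 0.67, adjusted p = 0.0454), with 4.11 to 5.86 when 1 library was left out (cKO replicate 2 and control replicate 2), and Tigit was called there too (1.86 ± 0.25, adjusted p = 0.0452). Within TFH-like cells Il4 stood at 12.2 and 8.63 against 438 and 812 CPM over all 4 libraries, from 4 and 1 control and 1084 and 4511 cKO UMIs, so the size of its difference rests on few control UMIs. It was called higher with 1 control library (5.66 ± 0.80, adjusted p = 8.34e-10) and with both (5.76, adjusted p = 4.33e-05). Slamf1 (-1.68 ± 0.42) and Ifng (-2.37 ± 0.59) were lower with 1 control library and were not called with both (adjusted p = 0.368 and 0.313). Ifng was also a marker that named the Th1-like class. In T cells of the YFP+ sort, where 0.863% of genes were called, 1 of 24 tested genes was called from the first list, Batf, and 4 of 24 from the second, Tnfsf8, Tnfrsf4, Lag3 and Il4, all higher. With the batch blocked 3 (1 higher and 2 lower) and 4 were called, beside 1.27% of genes. Without cKO replicate 2, which has 31 T cells, the calls of Batf, Tnfrsf4 and Lag3 were lost (adjusted p = 1.00, 0.0911 and 0.132), those of Batf and Lag3 also without control replicate 1 (0.357 and 0.0720), and that of Lag3 without control replicate 2 (0.0547). In such fits the differences of Tnfsf8 and Il4 ranged over 1.97 to 3.59 and 4.21 to 6.02.

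The third list held partners of these molecules on B cells, such as the receptors of IL-21 and IL-4, the ligands of OX40 and PD-1 and the SLAM adaptors. In total splenocytes 0 of 22 were called in B-lineage cells and 0 of 18 in naive B-like cells by edgeR, beside 0.0549% and 0.0719% of genes. The median log2 fold changes were 0.031 and -0.10. With the batch blocked 11 and 11 were called, beside 14.3% and 15.8% of genes. In B-lineage cells of the YFP+ sort 4 of 22 were called, beside 6.25% of genes, and 14 with the batch blocked (8 higher and 6 lower), beside 19.5%. The OX40 ligand gene Tnfsf4 rose from 1.71 and 0.773 CPM to 16.7 and 14.7 CPM (3.73 ± 0.34, adjusted p = 0.00302), and Il4ra also rose (1.44 ± 0.32, adjusted p = 0.0382), a call that was lost without cKO replicate 2 (adjusted p = 0.414). S1pr2, which retains GCB cells in the follicle, fell (-2.67 ± 0.26, adjusted p = 0.00387), as did Sh2d1b1, a SAP-related adaptor (-3.77 ± 0.31, adjusted p = 0.00217). The share of GCB-like cells in these libraries was 18.1% and 29.4% in control and 3.63% and 2.04% in cKO, and the summed GCB markers of B-lineage cells stood at 1311 and 1286 CPM in control and 509 and 323 CPM in cKO. The part of this makeup in both differences was not tested. S1pr2 was among the genes that lead the cluster of most control GCB-like cells. It was also a marker that named the GCB-like class, so it is part of that marker sum. Ccr7 and Pdcd1lg2, given below, were on the naive B and memory B marker lists. Within GCB-like cells S1pr2 stood at 106 and 82.9 against 74.1 and 86.7 CPM (-0.18 ± 0.22, adjusted p = 0.980) and was not called, nor was Sh2d1b1 (-1.39 ± 0.53, adjusted p = 0.417) without the block, and in B-lineage cells of total splenocytes S1pr2 stood at 3.08 and 2.27 against 7.53 and 9.43 CPM (1.72 ± 0.25, adjusted p = 0.0974). In pre-GCB-like cells 7 of 21 were called, beside 6.39% of genes, and 13 with the batch blocked (8 higher and 5 lower), beside 17.2%. Among the 7 were the IL-21 receptor gene Il21r (1.08 ± 0.22, adjusted p = 0.0191) and Tnfsf4 (4.76 ± 0.48, adjusted p = 0.000669) higher, and Ccr7 (-1.73 ± 0.31, adjusted p = 0.0105) and the PD-L1 gene Cd274 (-1.56 ± 0.25, adjusted p = 0.00600) lower. The others were Il4ra (1.68 ± 0.27, adjusted p = 0.00600), higher, and Sh2d1b1 (-3.79 ± 0.59, adjusted p = 0.00531) and Il10ra (-0.91 ± 0.22, adjusted p = 0.0410), lower. Without cKO replicate 2 the calls of Il21r and Il10ra were lost (adjusted p = 0.0722 and 0.281). Tnfsf4 gave no UMI in control replicate 2, so the size of its difference rests on control replicate 1, without which the fitted value depends on the prior count. Without control replicate 2 it was 4.05, and that of Sh2d1b1 was -4.41 without control replicate 1 and -3.11 without control replicate 2. In GCB-like cells 2 of 20 were called, beside 1.31% of genes, and 10 with the batch blocked (3 higher and 7 lower), beside 9.1%. The 2 called without the block were the PD-L2 gene Pdcd1lg2 at 7.16 and 9.15 against 34.5 and 22.5 CPM higher (1.82 ± 0.28, adjusted p = 0.0147) and Il10ra lower (-1.64 ± 0.32, adjusted p = 0.0406), which without cKO replicate 1 was at -2.27 and without cKO replicate 2 was no longer called (adjusted p = 0.110). In naive B-like cells of the sort 0 of 18 were called, and 8 with the batch blocked, beside 0.287% and 16.7% of genes.

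The shape of the members' pattern was described over 106 sums of at least 100 cells, from 22 classes and 8 libraries. Against the mean log2(CPM + 1) of the other 8, Pearson's r was 0.90 for Pdcd1, 0.87 for Icos, 0.87 for Sh2d1a, 0.86 for Maf, 0.84 for Cd40lg, 0.74 for Il21 and 0.63 for Tox2. Bcl6 (0.17) and Cxcr5 (-0.58) departed from the rest, both being members with high levels in B-lineage classes. The sums share libraries and depth, so these r values carry no test. Of 10413 other genes the 5 with the pattern most like the mean of the 9 were Tnfsf11 (r = 0.94), Ikzf2 (0.94), Gata3 (0.93), Gm29114 (0.92) and Gm13256 (0.92). None had its highest level in TFH-like cells: Tnfsf11 was highest in Th1-like and the others in Treg-like cells. Ikzf2 was also a marker that named the Treg-like class.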

How the data were processed

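The deposited files hold raw UMI counts per gene and cell barcode, with no normalization by the authors. The submitters' processing notes name the builds GRCm38 and mm10, while no aligner is named in the sources used here. After the study's filters on cells (above 200 UMIs, above 100 genes, at most 10% mitochondrial UMIs), cells were clustered with scanpy 1.11.5 (Leiden, resolution 1) and clusters were named from marker lists that hold no member. The naming rules for CD4 and Cd8a+ T cell clusters were set after the clusters were seen, and a class may therefore differ from the study's own. Scrublet's own threshold marked too few cells in the 4 YFP+ libraries, so the median threshold of the other 4 was used there. It marked 0.957% to 2.13% per YFP+ library, and the own thresholds of the other 4 marked 2.02% to 2.85%. Predicted doublets were kept except in 1 alternative.

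Counts were summed per library and class with at least 20 cells, and genotypes were compared with edgeR 4.0.16 (R 4.3.3, TMM, robust quasi-likelihood F test, prior count 2), with Benjamini-Hochberg adjustment over all genes tested and a threshold of 0.05. A log2 fold change is cKO over control and its SE was taken from the F statistic. Depth per library was 71894780 to 105224903 UMIs. Replicates of a group differed beyond sampling noise. The replicate number is the batch named in the labels, and same-numbered libraries deviated together (correlations 0.174 to 0.608 over 10 comparisons). Fits with that batch as a block were alternatives, and comparisons between classes of the same libraries had a library block. Other alternatives were DESeq2 1.42.0 and RLE size factors, no filter on low counts, all 8 libraries in 1 model, leaving out each library, removing doublets or mixed cells, a stricter cell filter, resolution 1.5 and gates on marker UMIs, whose genes are not all reported here. The minimum of 10 cells and the fits on single CD4 classes were added after the data were seen. For shares of cells, each cell was thinned to 2000 UMIs. The unblocked edgeR fit of CD4 T cells of total splenocytes was tested on simulated counts without a batch effect. The other steps were not tested in this way. The 9 genes, the lists and the tests were chosen with earlier results of these data known. Named genes were the 9 members, Eif3e, class markers, list genes called in CD4 T cells of total splenocytes or in a B cell class (up to 10 a list), and the 5 genes most like the members. Bach2, Id2, Irf4, Slamf1 and Ifng were called in TFH-like cells but not over all CD4 T cells. They fell outside the rule for list genes and were chosen after their values were seen.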

Additional observations from a re-analysis of the deposited data

Results flagged for a closer look

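The cKO over control difference was not the same in CD4 and CD8 T cells for 5 member genes, where 13.1% of all genes were called. The test was edgeR's interaction of genotype and class with a library block, in log2 units of CD4 minus CD8. The values were 1.77 ± 0.27 (adjusted p = 0.000109) for Pdcd1, 0.83 ± 0.13 (adjusted p = 0.000129) for Bcl6, 0.77 ± 0.10 (adjusted p = 1.6e-05) for Sh2d1a and 1.01 ± 0.21 (adjusted p = 0.00255) for Cd40lg. For Maf the value was -2.01 ± 0.32 (adjusted p = 0.00355), with the larger fold in CD8 T cells. The Cd40lg difference was negative in both classes, so its value marks a smaller decrease in CD4 T cells. In CD8 T cells it rests on 59 and 92 control and 12 and 18 cKO UMIs. The Cd40lg value changed sign under the UMI gate.

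The difference was also compared between TFH-like cells and the other CD4 T cells, in log2 units of TFH-like minus other. The reported fit has 1 control library and 1 residual degree of freedom, so the spread of control TFH-like cells was not measured. The values were -1.71 ± 0.19 for Maf, -1.82 ± 0.23 for Tox2, -3.02 ± 0.63 for Il21, -1.38 ± 0.28 for Cxcr5, -1.07 ± 0.20 for Icos and -0.86 ± 0.22 for Pdcd1. Cd40lg was at 0.91 ± 0.20. The size of the Il21 value rests on few UMIs outside TFH-like cells, 2 in control replicate 1 and 9 and 12 in cKO. The makeup of the other CD4 T cells differed between genotypes, and its part in these values was not tested. With the control library of 16 TFH-like cells admitted, 7 members were called, beside 2.89% of genes, at -1.36, -1.30, -2.04, -0.93, -0.78 and -0.93 in the same order and 0.87 for Cd40lg (largest adjusted p = 0.0220, for Cxcr5). Without the library block the calls between CD4 and CD8 T cells were not made, nor was a member called in the TFH-like fit with 1 control library.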

How the results depend on the processing

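Over 92 gene-level results and 1138 alternative values, 982 kept their direction and side of the threshold, 42 lost a call, 76 gained one and 38 changed sign, each of the last among differences that had not been called, except Cd40lg between CD4 and CD8 T cells. The cause of these changes was not tested. The count of members called moved with the block on the batch to 9 of 9 in CD4 T cells (31.1% of genes), 6 of 9 outside TFH-like cells (11.7%) and 5 of 8 in CD8 T cells (7.56%). In total splenocytes it moved to 4 of 8 in B-lineage (14.3%) and 2 of 6 in naive B-like cells (15.8%). In the YFP+ sort it moved to 2 of 7 in B-lineage (19.5%), 1 of 3 in naive B-like (16.7%), 2 of 4 in pre-GCB-like (17.2%) and 1 of 3 in GCB-like cells (9.1%). Without the library block the comparisons of CD4 with CD8 and of TFH-like with other CD4 T cells had 0 and 0. By DESeq2 the count was 6 in CD4 T cells, beside 5.74% of genes. Among comparisons with both control libraries, counts that moved by over 1.5 times included 4 outside TFH-like cells (2.31% of genes). In total splenocytes they were also 3 in B-lineage (2.48%) and 1 in naive B-like cells (1.53%). In the YFP+ sort they were 1 in T cells (0.156%), 2 in B-lineage (9.57%) and 1 in naive B-like cells (2.22%). Without a filter the count also moved in TFH-like cells, outside them, in CD8 T cells and in naive B-like YFP+ cells. In TFH-like cells resolution 1.5 gave 0 and the minimum of 10 cells 0. In YFP+ T cells 1 model of all 8 libraries gave 0, and in YFP+ B-lineage cells removing doublets gave 0 and the UMI gate 0. Taking 1 class outside TFH-like cells gave 0 for naive CD4-like, 0 for Treg-like (7 with the block) and 0 for Th1-like cells (0 with the block).

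Leaving out 1 library at a time left 1 library in a group, so the number of members that such fits called is not given here. Log2 differences that changed sign in such fits ranged, outside TFH-like cells, over -0.51 to 0.14 for Bcl6 and -0.014 to 0.42 for Cxcr5. In CD8 T cells they ranged over -0.12 to 0.16 for Bcl6, in B-lineage cells of total splenocytes over -0.90 to 0.91 for Cd40lg, and in naive B-like cells over -0.38 to 0.019 for Cxcr5, -0.31 to 0.58 for Icos and -1.18 to 0.83 for Cd40lg. In the YFP+ sort they ranged in T cells over -0.17 to 0.32 for Cd40lg, in B-lineage cells over -0.42 to 0.035 for Cxcr5, -0.75 to 1.44 for Pdcd1, -1.25 to 1.83 for Icos and -0.77 to 1.23 for Sh2d1a, and in GCB-like cells over -0.23 to 0.0045 for Bcl6 and -0.082 to 1.67 for Tox2. Between CD4 and CD8 T cells they ranged over -0.038 to 0.97 for Cxcr5, -1.69 to 0.57 for Tox2 and -0.40 to 1.66 for Il21.

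Other changes of sign were, with at least 10 TFH-like cells, to 0.030 for Tox2, -0.26 for Cd40lg and 0.21 for Maf, and to 0.29 for Sh2d1a against other CD4 T cells. Under the UMI gate Cd40lg turned to 0.078 in CD8 T cells and -0.92 between CD4 and CD8 T cells, and by DESeq2 Il21 turned to -1.06 there. At resolution 1.5 Cd40lg turned to 0.030 in naive B-like cells. In YFP+ B-lineage cells Pdcd1 turned to 0.16 with the block and 0.0056 without mixed cells, and Sh2d1a to 0.025 with the block and 0.14 without doublets. The mean share of cKO CD4 T cells with at least 3 members was 37.6%, against 58.4% for at least 2, 21.2% for at least 4 and 64.5% unthinned. The block, all 8 libraries in 1 model and leaving out a library were not run for TFH-like cells, where 1 control library entered, nor leaving out a library for their comparison with other CD4 T cells, nor 1 model of all 8 libraries outside TFH-like cells. The YFP+ T cell values rest on as few as 31 T cells in a library.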

Other observations

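In clusters that joined T and B cell transcripts, kept out of the classes compared, Cxcr5 stood at 166 and 132 CPM in control and 182 and 112 CPM in cKO and Sh2d1a at 70.2 and 71.4 CPM in control and 149 and 145 CPM in cKO. These clusters held 175 and 283 cells in control and 230 and 262 in cKO total libraries. In the remaining T cell clusters, which include innate-like, cycling and interferon-response cells, Maf stood at 60.7 and 72.4 CPM in control and 113 and 137 CPM in cKO and Icos at 320.4 and 256 CPM in control and 311 and 236 CPM in cKO. In NK-like cells Sh2d1a stood at 133 and 198 CPM in control and 125 and 255 CPM in cKO. These values were not compared between genotypes.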
